A study of Mus musculus with 2 samples.

Results

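The Rab GTPases are the largest branch of the Ras-like small G proteins, and they were taken here as every gene of the count table whose symbol is Rab followed by a number and at most 1 letter and 1 further digit. This gave 59 of 56791 genes, on 18 chromosomes. The table came from RNA sequencing of RAW264.7 cells, a wild-type mouse monocyte and macrophage leukaemia line. The study asked what FAPD10-exos, a particle preparation named so in the labels, does during M2 polarization, the alternative activation of macrophages by IL-4. The treated culture was given 10000000 particles of FAPD10-exos together with 20 ng of mouse IL-4 for 24 h, and the vehicle culture, by the reading taken here, the same IL-4 without the particles. Each group held 1 library, so no p-value could be computed and every difference below describes these 2 libraries without a replicate check.

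A Rab protein cycles between a GDP-bound form in the cytosol and a GTP-bound form on a membrane, where it recruits effectors that tether, move or fuse vesicles. Guanine nucleotide exchange factors (GEFs) load GTP, GTPase-activating proteins (GAPs) end the active state, and guanine nucleotide dissociation inhibitors (GDIs) return the protein to the cytosol. Attachment to the membrane needs geranylgeranyl lipids, which an escort protein and the enzyme Rab geranylgeranyl transferase add to cysteines at the end of the protein. In macrophages Rab proteins are known for carrying endosomes and phagosomes towards the lysosome.

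The coding sequences show both features, and they bear on how reads can be told apart between close members. The principal transcripts of GENCODE M21 encode 194 to 725 codons with a median of 215. The phosphate-binding loop was searched as a pattern of 8 codons: glycine, any 4 residues, glycine, lysine and serine or threonine. Of the 59 members, 57 match it. Rab40b and Rab40c, which carry a SOCS box and act in ubiquitin ligases, do not match this pattern. That does not show that they lack the loop. Of the 59, 50 have at least 2 cysteine codons among the last 5 codons, and the other 9 have 1. The ends of 5 members are given below with the cysteine codons in capitals, running 5′ to 3′ through the stop codon, to show the double-cysteine and single-cysteine forms.
Rab2a: gggggaggcTGCTGTtga
Rab5a: cagTGTTGTagtaactga
Rab7: gaaagcTGCagtTGTtga
Rab8a: cggTGCagtctcctgtga
Rab8b: cgcTGTtctctgctttga

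The paralogs of 5 subfamilies, among them pairs whose ratios lie on opposite sides of 1, are shown next over the loop, as 48 coding bases with the 8 loop codons in the middle. Capitals mark the positions that differ within each set, 13 among the Rab5 genes, 8 between the Rab8 genes, 11 between the Rab2 genes, 10 between the Rab11 genes and 12 between the Rab1 genes.
Rab5a: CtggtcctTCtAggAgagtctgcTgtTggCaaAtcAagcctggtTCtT
Rab5b: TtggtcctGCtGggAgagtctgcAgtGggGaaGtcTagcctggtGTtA
Rab5c: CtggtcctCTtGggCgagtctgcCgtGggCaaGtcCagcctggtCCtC
Rab8a: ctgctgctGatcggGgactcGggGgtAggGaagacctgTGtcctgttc
Rab8b: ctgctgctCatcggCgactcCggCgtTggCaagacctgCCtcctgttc
Rab2a: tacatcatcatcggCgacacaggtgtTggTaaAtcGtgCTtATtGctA
Rab2b: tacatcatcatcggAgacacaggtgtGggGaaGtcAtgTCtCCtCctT
Rab11a: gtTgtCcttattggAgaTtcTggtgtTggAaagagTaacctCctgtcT
Rab11b: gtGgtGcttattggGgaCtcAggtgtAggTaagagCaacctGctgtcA
Rab1a: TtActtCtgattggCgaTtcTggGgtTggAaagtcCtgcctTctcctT
Rab1b: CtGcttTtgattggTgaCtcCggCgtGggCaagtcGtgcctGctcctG
Over the aligned bases of whole coding sequences the identity within the 9 paralog pairs compared below ran from 63.3% for Rab7 and Rab7b to 79.3% for Rab8a and Rab8b. The longest stretch of identical bases between whole transcripts ran from 14 bases for Rab11a and Rab11b to 38 bases for Rab1a and Rab1b. The sources used here give neither the read length nor how reads matching several places were counted, and pseudogenes were not searched.

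The FAPD10-exos library held 37196241 counts and the vehicle library 36152743. Counts were divided by effective library sizes, so that 1 CPM, a count per 1000000 counts, stood for 35.6 counts in the FAPD10-exos library and 37.8 in the vehicle library. Ratios are FAPD10-exos over vehicle, and the ranges after them are 95% intervals that cover counting error only. Low counts were mostly even numbers, 76.3% of those up to 50 in the FAPD10-exos library and 75.1% in the vehicle library and the reason was not tested. Were each fragment counted at both ends, the counts would hold fewer independent fragments, so intervals were also computed with counts halved. Of 10 macrophage markers 9 were measured, among them Lyz2, Csf1r and Cd68, and Mertk had 0 counts against 2. The 9 did not move together: 4 had ratios above 1 and 5 below, with a median log2 ratio of -0.006. Adgre1, the F4/80 gene, had the highest ratio of them, at 6.94 CPM in the FAPD10-exos library and 2.38 CPM in the vehicle library. The 20 markers of fibroblasts, endothelium, muscle and lymphocytes summed to 48 counts in the FAPD10-exos library and 42 in the vehicle library, and the defining genes Col1a1, Myod1 and Cd3e were at 0 in both.

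Of the 59 Rab genes, 41 were measured, meaning a mean of at least 1 CPM, 10 had counts below that level and 8 had no count. Rab8a, Rab10 and Rab8b, small G proteins of traffic from the Golgi to the cell surface, stood highest in the FAPD10-exos library when levels were divided by exon length. Rab8a had 51.4 CPM per kilobase in the FAPD10-exos library and 44.7 in the vehicle library, Rab10 had 48.1 and 42.9, and Rab8b had 47.7 and 68.6. The order at the top thus differed between the libraries, with Rab8a first in the FAPD10-exos library and Rab8b first in the vehicle library. Rab31 held rank 5 in the FAPD10-exos library, at 27.6 CPM per kilobase, and rank 2 in the vehicle library, at 46.5. Rab2a held rank 4 at 32.2 in the FAPD10-exos library and rank 8 at 19.0 in the vehicle library. The 5 genes highest in the vehicle library, Rab8b, Rab31, Rab8a, Rab10 and Rab7, made up 45.0% of the summed per-length level of the family in the FAPD10-exos library and 49.9% in the vehicle library.

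**Figure D1:**
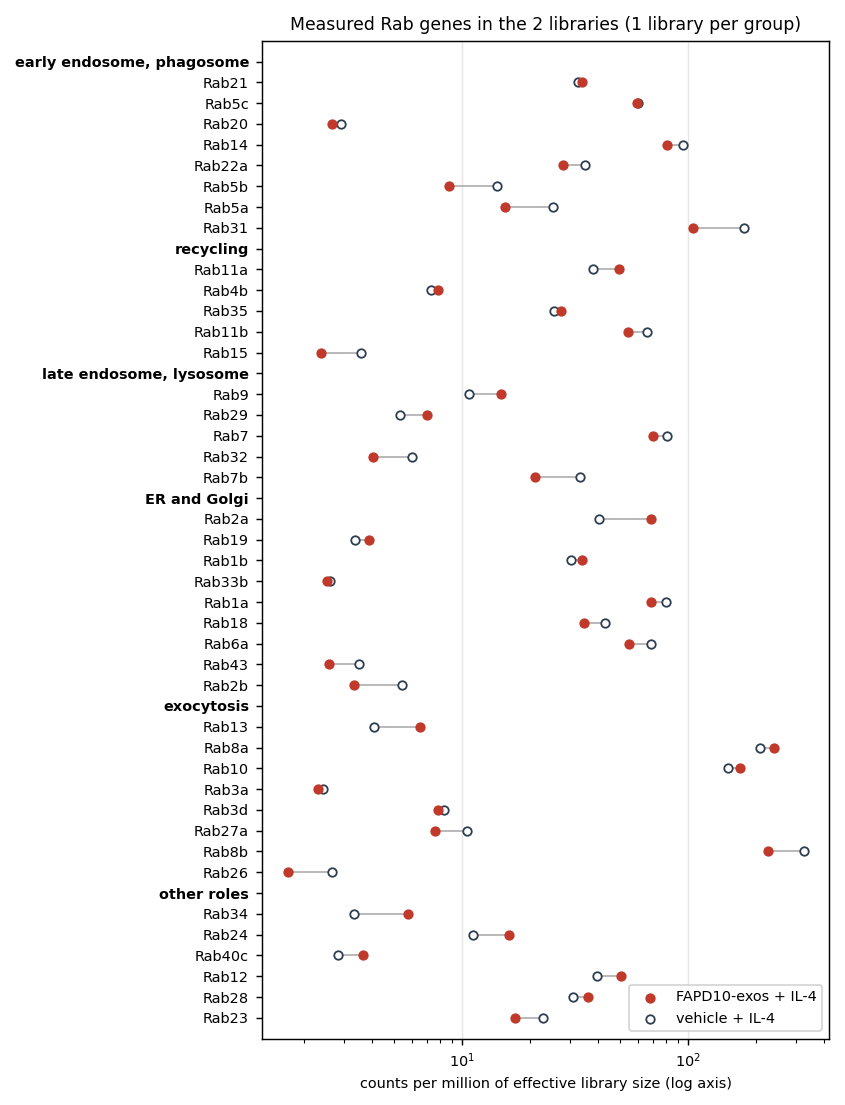
Levels of the 41 measured Rab genes by role, as CPM on a log axis, with filled points for the FAPD10-exos library and open points for the vehicle library (1 library each, no error bars). Rab8a, Rab8b and Rab10 lie furthest to the right in the FAPD10-exos library, and the gaps of Rab31, Rab5a, Rab2a and Rab34 are wide.

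At least 1.5-fold higher with an interval above 1 were 3 of the 41 measured Rab genes, or 7.32%, where 17.1% of all 12264 measured genes met the same rule. At least 1.5-fold lower were 7 of 41, or 17.1%, where 19.8% of all measured genes were. Both shares lie below those of all genes. For the lower genes this order turned under both length corrections and without the minimum level, as given below. With counts halved, 3 Rab genes were higher and 6 lower, where 16.2% and 18.8% of all genes were. Measured Rab genes ranged from a ratio of 0.594 to one of 1.72, so 0 of 41 were 2-fold higher or lower, against 4.19% and 8.64% of all measured genes. The median log2 ratio was -0.09 over the 41 Rab genes and 0.01 over all measured genes. Intervals lay wholly above 1 for 12 of the 41 Rab genes and wholly below 1 for 19. Of all 12264 measured genes, 4578 lay wholly above 1 and 4493 wholly below. The split moved with the scaling. Library totals gave 2 higher and 10 lower Rab genes, where 11.9% and 24.9% of all genes were, DESeq2 size factors gave 3 and 8, where 15.3% and 21.4% were, and upper-quartile scaling gave 4 and 5, where 20.2% and 17.4% were. With bulk RNA, fewer cells carrying a transcript and less of it per cell cannot be told apart.

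The ratio went down with transcript length in all genes, and Rab genes shared this. Spearman's correlation across genes was -0.60 over 9966 protein-coding genes and -0.52 over the 41 Rab genes, as descriptions over genes that share the same 2 libraries. Among 10 length bins, the shortest transcripts, up to 1213 nt, stood at a median of 0.61 in log2 and those longer than about 6383 nt at -0.76. After the trend was subtracted, 0 of 41 Rab genes were 1.5-fold higher, where 10.2% of the 9966 genes were, and 6 were 1.5-fold lower, where 12.1% were. The 6 were Rab31, Rab5a, Rab5b, Rab2b, Rab26 and Rab32, and all but Rab32 were also past 1.5-fold before the correction. With the exon length of the count table in place of transcript length, 0 were higher and 7 lower, where 11.7% and 13.9% were. Under that form Rab5a was no longer past 1.5-fold, and Rab7b and Rab20 were. After the transcript length correction the correlation with length over the 41 Rab genes was 0.26. The 2 Rab genes in the longest bin had stood at a median of -0.31 before it, against -0.76 for all genes there. The trend of all genes thus took more from these 2 genes than they showed. In the bin of 4134 to 4877 nt it took less, with the 6 Rab genes at a median of -0.42 against -0.30 for all genes. Below, the corrected value without further remark is that by transcript length.

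**Figure D2:**
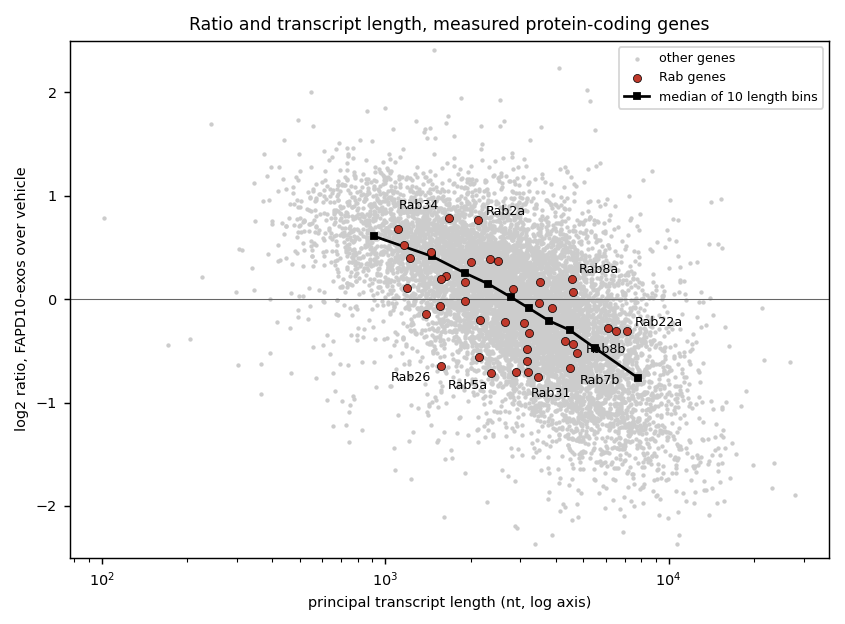
Log2 ratio, FAPD10-exos over vehicle, against the length of the principal transcript on a log axis for 9966 measured protein-coding genes, with the 41 Rab genes in red and the median of each of 10 length bins as a black line. 9 other genes lie outside the plotted range of 2.5 either way, and Rab31, Rab5a and Rab26 sit well under the line while Rab8a and Rab2a sit above it.

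All 8 genes of early endosomes and phagosomes were measured. Of their intervals 5 lay below 1, as did 4493 of those of all 12264 measured genes. By number, 3 passed the 1.5-fold rule downward and 0 upward, where 19.8% and 17.1% of all genes did. The same shares of all genes stand behind the counts of the roles that follow, which hold too few genes for a share to be read. Rab31, which acts between the trans-Golgi network and endosomes, had 105 CPM in the FAPD10-exos library and 177 CPM in the vehicle library. With 3749 against 6698 counts it was the most precisely measured of the 3, at a ratio of 0.594 (0.571 to 0.619), and its log2 ratio of -0.75 was -0.60 after the length correction. Rab5a and Rab5b, which drive fusion of early endosomes, were lower by nearly the same factor. Rab5a had 15.4 CPM in the FAPD10-exos library and 25.2 CPM in the vehicle library, at a ratio of 0.610 (0.548 to 0.678). Rab5b had 8.74 CPM in the FAPD10-exos library and 14.2 CPM in the vehicle library, at a ratio of 0.615 (0.533 to 0.709). Length correction left Rab5a at -0.83 and Rab5b at -0.65 in log2, both still past 1.5-fold, whereas with exon length Rab5a stood at -0.56 and Rab5b at -0.71, Rab5a then short of it.

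Rab5c, the most abundant Rab5 gene per length, had 59.4 CPM in the FAPD10-exos library and 60.2 CPM in the vehicle library, and its interval of 0.930 to 1.05 held 1. Its log2 ratio was -0.28 after the length correction. Rab14, which serves endosomes, Golgi and phagosomes, had 80.6 CPM in the FAPD10-exos library and 94.8 CPM in the vehicle library, and its ratio was 0.850 (0.809 to 0.893). Rab22a, an early endosomal sorting GTPase, had a ratio of 0.805 (0.741 to 0.875), and Rab21, which carries integrins inward, one of 1.05 (0.967 to 1.14). Rab22a and Rab21 have long transcripts and stood at 0.32 and 0.43 in log2 after the correction, so the sign of Rab22a turned, and with exon length Rab22a stood at 0.01. Rab20, a GTPase of phagosome maturation, had 94 against 110 counts and an interval of 0.682 to 1.21, and stood at -0.57 in log2 by transcript length and -0.65 by exon length. Its exons share 27.5% of their length with other genes, so its value is uncertain.

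**Figure D3:**
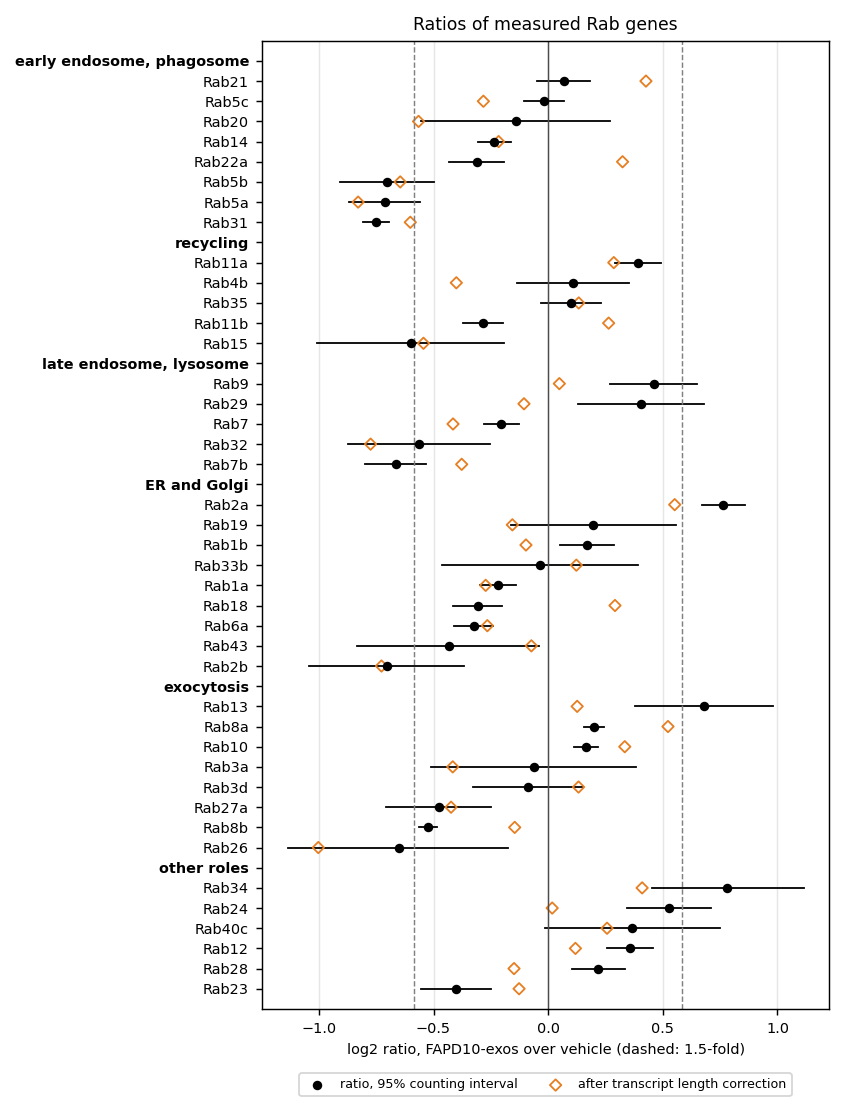
Log2 ratios, FAPD10-exos over vehicle, of the 41 measured Rab genes by role, with 95% counting intervals as bars, open diamonds for the value after the transcript length correction and dashed lines at 1.5-fold. Rab31, Rab5a and Rab5b lie beyond the lower line in both forms, whereas Rab2a, Rab13 and Rab34 lie beyond the upper line only before the correction.

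Of 5 measured recycling GTPases 1 was lower by the 1.5-fold rule and 0 higher, and the Rab11 paralogs lay on opposite sides of 1. Rab11a, of the recycling endosome, had 49.6 CPM in the FAPD10-exos library and 37.8 CPM in the vehicle library, at a ratio of 1.31 (1.22 to 1.41). Rab11b had 54.0 CPM in the FAPD10-exos library and 65.6 CPM in the vehicle library, at a ratio of 0.822 (0.774 to 0.873). The Rab11b transcript is longer, 6109 nt against 2336 nt for Rab11a, and after the correction both stood close together, at 0.29 and 0.26 in log2, but with exon length Rab11a was at 0.23 and Rab11b at -0.10. Rab15, of recycling endosomes near the nucleus, was the gene past the threshold, at 84 against 135 counts and a ratio of 0.661 (0.497 to 0.874). It stood at -0.54 in log2 after the correction, short of 1.5-fold. Rab35, which returns cargo to the cell surface, and Rab4b, of fast recycling, had ratios of 1.07 and 1.08 with intervals that held 1. Rab4b stood at -0.40 in log2 after the correction, and 65.0% of its exon length overlaps other genes. Rab4a had 31 counts in the FAPD10-exos library and 22 in the vehicle library, and Rab25 and Rab17 had 2 or fewer in all.

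Of 5 measured late endosomal and lysosomal members 1 was lower by the rule and 0 higher. Rab7, the GTPase of fusion with the lysosome, had 70.1 CPM in the FAPD10-exos library and 80.8 CPM in the vehicle library, at a ratio of 0.868 (0.823 to 0.915), and its log2 value of -0.20 was -0.42 after the correction. Rab7b, which acts from late endosomes to the trans-Golgi network, had 21.0 CPM in the FAPD10-exos library and 33.4 CPM in the vehicle library. Its ratio of 0.630 (0.575 to 0.691) passed the threshold, and its log2 value was -0.38 after the transcript length correction, short of it, and -0.64 after the exon length correction, past it. Rab32, of lysosome-related organelles, had 144 against 226 counts and a ratio of 0.677 (0.545 to 0.838), and at -0.77 it passed after the correction only. The other two measured genes were higher. Rab9, of retrieval from late endosomes to the Golgi, had a ratio of 1.38 (1.21 to 1.57), and Rab29, a partner of the kinase Lrrk2, one of 1.32 (1.09 to 1.60). Both have short transcripts and stood at 0.05 and -0.11 in log2 after the correction.

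Of 9 measured ER and Golgi members 1 was higher by the rule and 1 lower, and these were the Rab2 paralogs. Rab2a, of traffic between the ER and the Golgi, had 68.7 CPM in the FAPD10-exos library and 40.4 CPM in the vehicle library, from 2444 against 1528 counts. The ratio was 1.70 (1.59 to 1.81), and the log2 value of 0.76 was 0.55 after the length correction, just under 1.5-fold. With exon length Rab2a stood at 0.36 in log2, further under it. Its paralog Rab2b lay on the other side, at 3.32 CPM in the FAPD10-exos library and 5.40 CPM in the vehicle library, at a ratio of 0.614 (0.486 to 0.774). As 64.0% of the exon length of Rab2b overlaps other genes, its value is uncertain. Rab1a and Rab1b, which act from the ER to the Golgi, had ratios of 0.860 (0.815 to 0.907) and 1.12 (1.04 to 1.22). After the correction Rab1a stood at -0.27 and Rab1b at -0.10 in log2, so the sign of Rab1b turned. Rab6a, of return traffic through the Golgi, had a ratio of 0.799 (0.753 to 0.848), and Rab18, of the ER and lipid droplets, one of 0.808 (0.750 to 0.871). Rab18 stood at 0.29 in log2 after the transcript length correction and Rab6a at -0.27. With exon length Rab18 stood at -0.005 and Rab6a at -0.44. Rab19 and Rab33b had intervals that held 1, and Rab43, at 0.740, overlaps other genes over 75.4% of its exons.

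The 8 measured exocytic members held 39.9% of the summed CPM of the family in the FAPD10-exos library and 39.2% in the vehicle library, with 1 gene higher by the rule, Rab13, and 1 lower, Rab26. Rab8a had 240 CPM in the FAPD10-exos library and 209 CPM in the vehicle library, at a ratio of 1.15 (1.11 to 1.18). Rab8b had 226 CPM in the FAPD10-exos library and 325 CPM in the vehicle library, at a ratio of 0.695 (0.676 to 0.715), short of the threshold. In log2 Rab8a stood at 0.20 before and 0.52 after the correction, and Rab8b at -0.52 before and -0.15 after. With exon length they stayed nearer the values as counted, Rab8a at 0.24 and Rab8b at -0.46. Rab8a was thus the more abundant of the pair in the FAPD10-exos library and Rab8b in the vehicle library. Rab10 had 169 CPM in the FAPD10-exos library and 151 CPM in the vehicle library, at a ratio of 1.12 (1.08 to 1.16). Rab13, known from epithelial junctions, was 1.60-fold higher (1.30 to 1.97) from 232 against 154 counts, but stood at 0.13 in log2 after the correction. Rab26, of secretory granules, had 60 against 100 counts and a ratio of 0.637 (0.455 to 0.886), and with counts halved the interval of 0.391 to 1.02 held 1. Its corrected ratio was 0.499, or 0.637 as counted.

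Rab27a, which docks secretory granules and multivesicular endosomes at the cell surface, had 7.56 CPM in the FAPD10-exos library and 10.5 CPM in the vehicle library. The ratio was 0.718 (0.613 to 0.840), and -0.42 in log2 after the correction, under 1.5-fold in both forms. Its paralog Rab27b had 2 counts in the FAPD10-exos library and 0 in the vehicle library, where a count of 0 allows up to 3 counts, or 0.0794 CPM. Rab3a and Rab3d, of regulated secretion, had ratios of 0.957 and 0.940 with intervals that held 1, and stood at -0.42 and 0.13 in log2 after the correction. Rab3b, Rab37 and Rab44 had no count, and Rab3c had 2 against 0.

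Of the 6 measured members with other roles, 1 was higher by the rule and 0 lower, and 5 had ratios above 1. Rab34, which acts in cilium formation and lysosome positioning, had 204 counts in the FAPD10-exos library and 126 in the vehicle library. At 5.73 and 3.33 CPM its ratio of 1.72 (1.37 to 2.16) was the highest of the family, and its log2 value of 0.78 was 0.41 after the length correction. Rab24, an autophagy-related member with 62.4% of its exon length in other genes, had a ratio of 1.44 (1.27 to 1.64). Rab12, which sends transferrin receptor to degradation, had a ratio of 1.28 (1.19 to 1.37), and Rab28, known from photoreceptor cilia, one of 1.16 (1.07 to 1.26). After the correction these 3 stood between -0.15 and 0.12 in log2. Rab23, an inhibitor of Hedgehog signalling, was the exception with a ratio of 0.757 (0.681 to 0.840), or -0.13 in log2 after the correction, and Rab40c had one of 1.29 (0.991 to 1.68).

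Without the minimum level, 3 of the 51 Rab genes with a count were called higher and 8 lower, where 11.8% and 14.1% of all genes with a count were. The added gene was Rab39, with 6 counts in the FAPD10-exos library and 22 in the vehicle library, whose interval held 1 once counts were halved. Rab33a had 0 against 5, Rab30 0 against 4, Rab6b 2 against 6, Rab40b 0 against 2 and Rab36 2 against 0. Rab9b, Rab38, Rab39b and Rab42 had no count in either library. For the others below the minimum a difference was not detectable at this depth.

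Comparing paralogs with each other removes the library scaling, since it cancels. The 9 pairs from 7 subfamilies with at least 100 counts per gene over both libraries were compared by the ratio of the first gene over the ratio of the second. The Rab8 pair was the most precise: 51.5% of its counts were Rab8a in the FAPD10-exos library and 39.2% in the vehicle library, which gave a ratio of ratios of 1.65 (1.58 to 1.72). Its transcripts of 4550 and 4733 nt are nearly equal, and the log2 difference of 0.72 was 0.67 after the length correction. For the Rab2 pair the ratio of ratios was 2.76 (2.17 to 3.53), with Rab2a at 95.4% of the counts in the FAPD10-exos library and 88.2% in the vehicle library. The log2 difference there was 1.47 before and 1.28 after the correction, subject to the overlap of Rab2b with other genes. In the Rab5 subfamily, Rab5a against Rab5c stood at 0.618 (0.547 to 0.698) and Rab5b against Rab5c at 0.623 (0.533 to 0.727), while Rab5a against Rab5b was 0.992 (0.830 to 1.19). The log2 differences from Rab5c were -0.69 for Rab5a and -0.68 for Rab5b, and -0.55 and -0.36 after the correction, both then under 1.5-fold. With exon length Rab5a, at -0.56 in log2, lay closer to Rab5c, at -0.38, and Rab5b stood at -0.71.

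For the Rab11 and Rab7 pairs the transcript length correction took the difference to near 0. That of the Rab1 pair became smaller, and that of the Rab3 pair moved away from 0. Rab11a against Rab11b had a ratio of ratios of 1.60 (1.46 to 1.75), but the log2 difference of 0.68 was 0.02 after the correction. With exon length they stayed apart, Rab11a at 0.23 and Rab11b at -0.10 in log2. Rab7 against Rab7b was at 1.38 (1.24 to 1.53), with a log2 difference of 0.46 before and -0.04 after it. Rab1a against Rab1b was at 0.765 (0.694 to 0.844), or -0.39 in log2 before and -0.18 after, and Rab3a against Rab3d was at 1.02 (0.714 to 1.45), or 0.03 before and -0.55 after. In all, 7 of the 9 intervals excluded 1, also with counts halved, and 5 pairs differed by at least 1.5-fold. After the length correction 2 pairs did, those of Rab8 and Rab2. The pairs of the Rab5 subfamily share genes, so the 9 are not independent. No share of other gene pairs was computed, so these counts cannot be read as particular to Rab paralogs. For single genes, 4578 of all 12264 intervals lay wholly above 1 and 4493 wholly below.

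**Figure D4:**
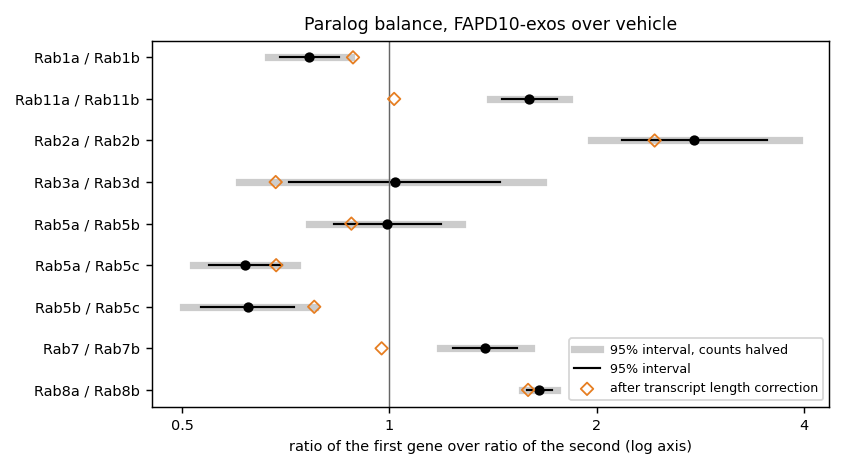
Ratio of ratios for 9 Rab paralog pairs on a log axis, with the 95% counting interval as a thin line, the interval with counts halved as a thick grey line and an open diamond for the value after the transcript length correction. Rab8a over Rab8b and Rab2a over Rab2b stay above 1.5 in both forms, while the diamonds of Rab11a over Rab11b and Rab7 over Rab7b lie near 1.

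As counted, the genes that lipidate and recycle Rab proteins spanned a wider range of ratios than the Rab genes. After the length correction the ranges of the lists were nearly the same, with highest log2 values of 0.54 for these genes and 0.55 for the Rab genes. Chm and Chml encode the Rab escort proteins, which present new Rab proteins to the transferase. Chm had 3.54 CPM in the FAPD10-exos library and 10.0 CPM in the vehicle library, 2.82-fold lower (2.30 to 3.48), and Chml had 4.27 and 10.1 CPM, 2.35-fold lower (1.95 to 2.86). After the length correction they stood at -1.15 and -0.61 in log2, both still 1.5-fold lower. Rabggtb, the catalytic subunit of the transferase, had 61.2 CPM in the FAPD10-exos library and 39.8 CPM in the vehicle library, at a ratio of 1.54 (1.44 to 1.64), and stood at 0.19 after the correction. Rabggta, its other subunit, had a ratio of 1.21 (0.896 to 1.64). Gdi2, a dissociation inhibitor, had 219 CPM in the FAPD10-exos library and 181 CPM in the vehicle library, at a ratio of 1.21 (1.17 to 1.25). Rabif, a chaperone of nucleotide-free Rab proteins, had 72 against 116 counts, a ratio of 0.659 (0.484 to 0.892) whose halved interval held 1. Of the 8 genes in this list, 3 were at least 1.5-fold lower and 1 higher, where 19.8% and 17.1% of all genes were.

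Exchange factors and activating proteins were lower more often than higher. Among 50 GEF genes that were measured, 13 passed the 1.5-fold rule downward and 0 upward, and among 33 GAP genes the numbers were 13 and 0. The lower genes were 26.0% of the GEF genes and 39.4% of the GAP genes, against 19.8% of all genes. Of all genes 17.1% were higher. Their transcripts are long, with medians of 4440 and 4315 nt against 2657 nt for the Rab genes. The medians of -0.26 and -0.46 in log2 became -0.08 and -0.27 after the length correction, with 4 GEF genes higher and 4 lower, and 1 GAP gene higher and 7 lower. Of all genes 10.2% were then higher and 12.1% lower, so the GEF counts, out of 48 with a length, lay below those shares. Dennd4c, a GEF of Rab10, had 11.4 CPM in the FAPD10-exos library and 40.0 CPM in the vehicle library, 3.50-fold lower (3.14 to 3.92), and stood at -1.31 after the correction. Gapvd1, a Rab5 GEF, was 2.01-fold lower (1.85 to 2.17), Dennd1b, a Rab35 GEF, 2.33-fold (2.05 to 2.65), and Dennd3, a Rab12 GEF, 1.88-fold (1.53 to 2.31). These 3 were under 1.5-fold after the transcript length correction, but with exon length Dennd3 stood at -0.74 in log2, past it.

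Tbc1d5, a Rab7 GAP that binds retromer, had 24.2 CPM in the FAPD10-exos library and 65.5 CPM in the vehicle library, at a ratio of 0.370 from 861 against 2474 counts, and -0.98 in log2 after the correction. Tbc1d8b, Tbc1d12 and Tbc1d2b, of the same TBC domain family, were 2.51-fold (1.93 to 3.30), 2.16-fold (1.59 to 2.96) and 2.13-fold (1.77 to 2.56) lower. After the transcript length correction Tbc1d2b, at -0.57 in log2, was just under 1.5-fold, and with exon length, at -0.63, just past it.

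Among 44 effector genes that were measured, 15 passed the rule downward and 2 upward, where 19.8% and 17.1% of all genes did. After the length correction 5 were lower and 3 higher, where 12.1% and 10.2% of all genes were, so the lower share was then near that of all genes. Acap2, an Arf6 GAP that binds Rab35, had 43.6 CPM in the FAPD10-exos library and 121 CPM in the vehicle library, 2.78-fold lower (2.62 to 2.95), and stood at -1.34 in log2 after the correction. Rab11fip2, a Rab11 effector, had 126 against 344 counts, 2.57-fold lower (2.09 to 3.18), and stood at -1.73. Gcc2 and Golgb1, long coiled-coil golgins that tether vesicles at the Golgi, were 2.91-fold (2.70 to 3.14) and 2.74-fold (2.65 to 2.83) lower, at -0.94 and -0.47 after the correction, while with exon length Golgb1 stood at -0.88. A further 3 were chosen after their values were seen. Eea1, the Rab5 tether of early endosomes, had 209 CPM in the FAPD10-exos library and 501 CPM in the vehicle library, and stood at -0.54 after the correction. Rilpl2 and Micall2, which bind Rab8 and its relatives, were the 2 higher genes, at ratios of 1.76 (1.62 to 1.91) and 1.84 (1.24 to 2.77). After the correction Rilpl2 stood at 0.39 in log2, under 1.5-fold, and Micall2, which rests on 71 against 41 counts, at 1.04.

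**Figure D5:**
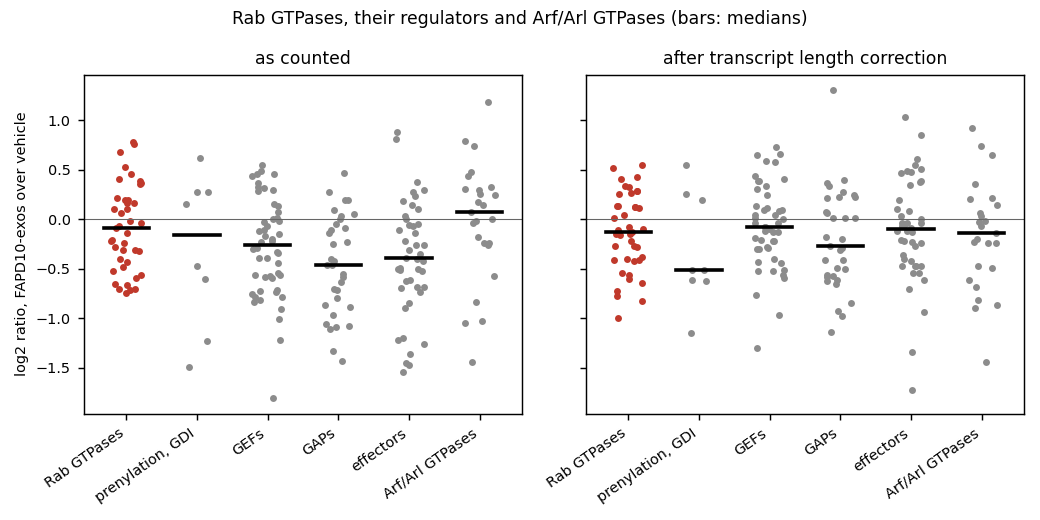
Log2 ratios, FAPD10-exos over vehicle, of measured genes in the Rab family (red), its regulator and effector lists and the Arf/Arl GTPases, as counted (left) and after the transcript length correction (right), with bars at the medians. The Rab genes lie between -0.75 and 0.78 as counted, a narrower range than that of their GEFs, GAPs and effectors, whose medians lie nearer 0 on the right than on the left.

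The Arf and Arl GTPases, another family of vesicle traffic, had 3 higher and 4 lower genes by the 1.5-fold rule among 25 measured, where 17.1% and 19.8% of all genes were. Their median log2 ratio was 0.08, beside -0.09 for the Rab genes, and no difference between the families was tested. Their transcripts are shorter, with a median of 2095 nt against 2657 nt. After the length correction the medians were -0.14 and -0.13. Then 3 Arf and Arl genes were higher and 6 lower, where 10.2% and 12.1% of all genes were.

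The count table's own positions are given here, and its mouse build is not named in the labels. Rab31 lies on chromosome 17 from 65958724 to 66079747, Rab5a on chromosome 17 from 53786262 to 53814708, Rab5b on chromosome 10 from 128513044 to 128532133 and Rab7b on chromosome 1 from 131616433 to 131643177. Rab2a lies on chromosome 4 from 8535644 to 8607778, Rab34 on chromosome 11 from 78079256 to 78083019, Rab8a on chromosome 8 from 72915044 to 72937748 and Rab8b on chromosome 9 from 66750946 to 66826969. Each is protein-coding in GENCODE M21 and its reads were assigned over exons.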

How the data were processed

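The authors deposited raw whole-number counts per gene symbol for both libraries in 1 table, which per the file headers has the featureCounts layout and gives each gene's exon length. The tools behind the counts are those that the submitters' processing notes list as featureCounts, STAR 2.5.3a and fastp 0.23.4. The notes also name GRCh38, a human build, whereas the symbols are mouse, and only 2 of 59 Rab genes started at the same base as in GENCODE M21 on GRCm38. No source used here states the strand setting, so the 5 of 41 measured Rab genes whose exons lie for more than 20% inside another gene were called uncertain.

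Counts were scaled by TMM (edgeR 4.0.16, R 4.3.3). With 1 library per group no test of edgeR could be fitted. Each ratio has a 95% interval derived by the Clopper-Pearson method from the share of FAPD10-exos counts among the counts of both libraries, with 0.5 added to both counts where one was 0. Pair ratios carry the exact conditional interval of the odds ratio. A gene was called at 1.5-fold with an interval excluding 1. The length correction subtracted a running median, taken across 50 bins of principal transcript length (GENCODE M21), from each log2 ratio. The members, the role, regulator and marker lists and the rule for named genes (up to 12 called members each way with at least 100 counts, 12 fixed members, up to 4 genes per regulator list) were chosen with earlier results of these data known, and other values were added after they were seen. Some results are not reported here. Alternatives were library totals, DESeq2 1.42.0 and upper-quartile scaling, other filters, a 2-fold threshold, halved counts, 1 CPM added and 2 length corrections. Scripts ran under Python 3.11.15 (scipy 1.17.1, numpy 2.4.6, Biopython 1.88, matplotlib 3.10.9, pandas 2.3.3).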

Additional observations from a re-analysis of the deposited data

How the results depend on the processing

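The 3 Rab genes at least 1.5-fold higher and the 7 at least 1.5-fold lower became 1 and 4 among the 25 Rab genes averaging 10 CPM or more, and 0 and 0 at the 2-fold threshold. Adding 1 CPM to both values left 4 lower, and subtracting the trend with transcript length or with the exon length of the count table left 0 higher. Fewer genes were tested under the stricter filter. No share of all genes is given for that filter or for the added 1 CPM, so those counts cannot be set against other genes. Scaling by library totals moved the median of all measured genes by -0.13 in log2. The median of the Rab genes ran from -0.22 with library totals to -0.02 with upper-quartile scaling. None of the 10 called Rab genes and of the regulators and effectors chosen by the rule changed sign under the alternatives run. By contrast, 10 Rab genes short of the threshold did so under the transcript length correction, Rab11b, Rab18 and Rab22a among them. With exon length Rab11b at -0.10 and Rab18 at -0.005 in log2 kept their sign, and Rab22a stood at 0.01. No paired analysis was possible because each group holds 1 library. Depth limits the genes near 1 CPM, such as Rab26, whose call at 60 against 100 counts was lost with counts halved.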
